A study of Mus musculus with 6 samples.

Results

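Genes of the major histocompatibility complex (MHC) and of antigen presentation were followed in cultures of dermal fibroblasts from mice with a Pdgfra-Cre deletion of Nelfb. The group held 27 of the 17924 genes in the deposited table. Its members were the protein-coding rows whose symbol starts with H2- and a capital letter, together with B2m, Tap1, Tap2, Tapbp, Nlrc5, Cd74, Cd80, Cd86, Cd1d1 and Ctss. They comprised 14 class I genes (13 heavy chains and B2m), 4 class II genes and 9 others. One of the 9, H2-Ke6, carries an H2 symbol from its place in the MHC but encodes a hydroxysteroid dehydrogenase. Ciita, the regulator of class II genes, was not analysed here.

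Fibroblasts from the dorsal dermis of newborn mice were kept for 14 days in adipocyte differentiation medium and profiled by bulk RNA-seq. CTL cells came from Nelfb fl/wt or Nelfb wt/wt mice and Nelfb-/- cells from Nelfb fl/fl mice, and both groups carried Pdgfra-Cre. Each group had 3 biological replicates. Cre under Pdgfra control deletes the floxed allele in the Pdgfra lineage, so that the deletion depends on that promoter and not on the culture as a whole. Nelfb encodes a subunit of the negative elongation factor, which holds RNA polymerase II in a paused state near promoters.

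MHC class I molecules display peptides from inside the cell to CD8+ T cells. A class I heavy chain pairs with beta-2-microglobulin, the product of B2m, and takes up peptides that the TAP transporter carries into the endoplasmic reticulum. Nearly all nucleated cells make class I molecules, and NLRC5 is a transcriptional activator of their genes. Class II molecules present material taken up from outside to CD4+ T cells and are made mainly by professional antigen-presenting cells. The invariant chain, the product of Cd74, guides class II molecules to the endosome, where cathepsin S trims it and H2-DM exchanges its remnant for peptide. CD80 and CD86 on the same cells provide the co-stimulatory signal to T cells through CD28.

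Values are CPM, reads scaled to a library total of 1e+06, with no correction for gene length unless stated. The depth lay between 17.2 and 29.4 M reads per library (M, 1e+06), and 3 reads, taken as the floor, were worth 0.102 to 0.175 CPM. Nelfb itself stood at 17.3, 19.6 and 22.3 CPM in CTL replicates 1 to 3 and 5.50, 3.90 and 5.55 CPM in Nelfb-/- replicates 1 to 3, with a log2 fold change of -1.99 ± 0.22 (SE, n = 3 per group, limma adjusted p = 0.0050). The first principal component held 59.9% of the variance and separated the groups. The second held 27.7% and set CTL replicate 3 and Nelfb-/- replicate 1 apart from the other libraries of their groups, in opposite directions. The labels call the cells adipocytes, and the 10 adipocyte markers on the list used had rows in the table, with a summed level of 18930 to 30335 CPM in CTL and 10981 to 20118 CPM in Nelfb-/- cells.

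A gene counted as changed if its adjusted p was 0.05 or lower and its fold change 2 or higher. Of the 24 members that passed the filter of a mean of 10 reads, 6 were higher in Nelfb-/- cells, 5 were lower and 13 did not pass the threshold. Over the 16252 genes tested, 7.58% were called higher and 3.64% lower, 11.2% in all. The median log2 fold change was -0.20 over the 24 members and 0.07 over all genes tested. The groups did not overlap for 14 of the 24, 8 of them higher and 6 lower in Nelfb-/- cells, where 38.1% of all genes tested had groups that did not overlap. With 3 samples per group, exact permutation of the labels (two-sided) would give any one gene a p of 0.10 or higher, so that p is given from limma, adjusted over all genes tested, unless another test or an unadjusted p is named.

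**Figure D1:**
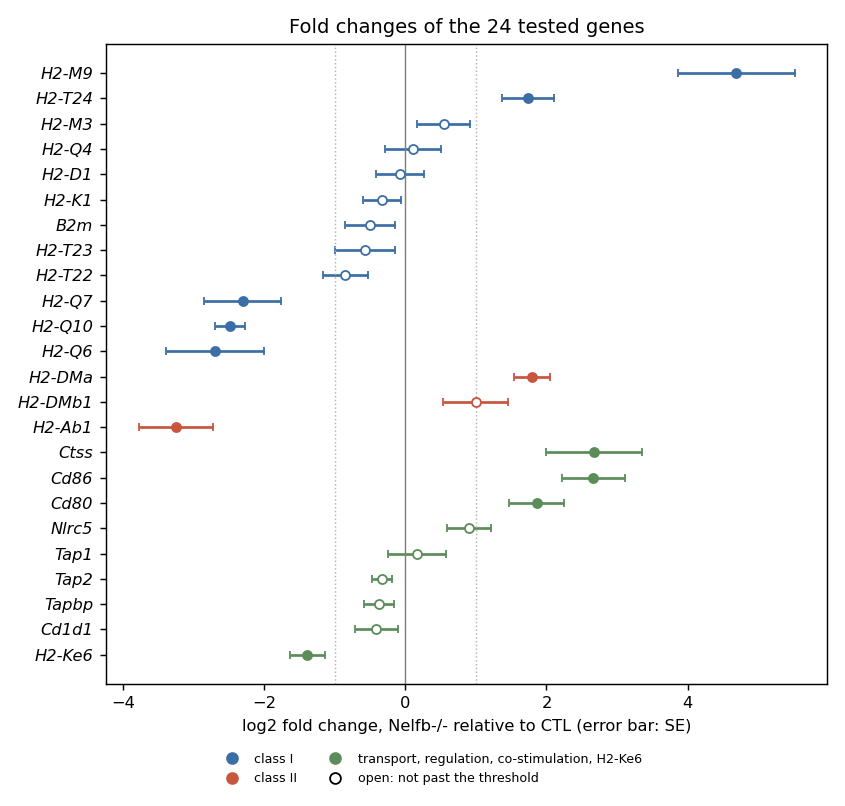
Log2 fold change of Nelfb-/- relative to CTL cells (x axis) for the 24 tested genes (y axis), with the SE as error bar and n = 3 per group. Dotted lines mark a fold change of 2 and filled points passed the threshold. Changes ran from -3.25 for H2-Ab1 to 4.69 for H2-M9, and H2-K1, H2-D1 and B2m lay between -0.50 and -0.07.

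Among class I genes, those with the highest levels did not pass the threshold, whereas 3 genes of the Q region were lower in Nelfb-/- cells and 2 less abundant genes, H2-T24 and H2-M9, were higher. In all, 5 of 12 tested class I genes were called and 7 were not, and the median log2 fold change of the 12 was -0.42. H2-M1 and H2-M2 stayed under the filter. Per kb of exon, which allows genes to be compared, B2m led in CTL cells with 1197 ± 345 CPM per kb (SD, n = 3), followed by H2-D1 with 392 ± 114 and H2-K1 with 255 ± 29.4. In Nelfb-/- cells the order was the same, with 865 ± 357, 378 ± 140 and 209 ± 72.7 CPM per kb. The ranges of mean ± SD of H2-D1 and H2-K1 overlapped in both groups, and those of B2m and H2-D1 in Nelfb-/- cells but not in CTL cells. All other class I genes were under 40 CPM per kb in both groups.

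H2-K1 and H2-D1 encode the classical heavy chains. H2-K1 stood at 775, 654 and 821 CPM in CTL replicates 1 to 3 and at 861, 492 and 492 CPM in Nelfb-/- replicates 1 to 3, a log2 fold change of -0.33 ± 0.27 (SE, adjusted p = 0.44). H2-D1 stood at 942, 757 and 1333 CPM in the CTL libraries and at 1392, 749 and 787 CPM in the Nelfb-/- libraries, which gave a log2 fold change of -0.07 ± 0.34 (adjusted p = 0.91). B2m stood at 1010, 743 and 1335 CPM in the CTL libraries and at 1098, 544 and 590 CPM in the Nelfb-/- libraries, which gave a log2 fold change of -0.50 ± 0.35 (adjusted p = 0.38). The groups overlapped for all 3 genes. The highest value of each group was in CTL replicate 3 and in Nelfb-/- replicate 1, the libraries that stood apart on the second component. For B2m and H2-K1 the overlap came from Nelfb-/- replicate 1 alone. Without that library the log2 fold change was -0.82 for B2m (adjusted p = 0.10) and -0.60 for H2-K1 (adjusted p = 0.070), neither past the threshold. The sign of the H2-D1 change turned with the libraries used, from -0.36 to 0.15 as single libraries were left out. Summed over the 13 heavy chains, the level was 2117 ± 493 CPM for CTL and 1814 ± 667 CPM for Nelfb-/- (SD, n = 3), within the spread of the replicates.

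The 3 class I genes called lower in Nelfb-/- cells lay in the Q region of chromosome 17. H2-Q10 (ENSMUSG00000067235), which encodes a class Ib chain known as a secreted product of liver, occupies chr17:35470089-35474563 on the plus strand (GRCm38). It stood at 49.7, 59.5 and 48.4 CPM in the CTL libraries and at 9.91, 11.5 and 7.07 CPM in the Nelfb-/- libraries. Each Nelfb-/- library was far under each CTL library, and the fitted log2 fold change was -2.49 ± 0.22 (SE, adjusted p = 0.0035). It was the only member that stayed past the threshold with any 1 library left out and under each other alternative.

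H2-Q7 and H2-Q6 belong to the genes of Qa-2, a class Ib molecule anchored to the membrane by a glycolipid. H2-Q7 (ENSMUSG00000060550, chr17:35439155-35443773) stood at 30.9, 24.8 and 89.7 CPM in the CTL libraries and at 13.5, 6.81 and 6.13 CPM in the Nelfb-/- libraries, which gave a log2 fold change of -2.30 ± 0.54 (SE, adjusted p = 0.035). H2-Q6 (ENSMUSG00000073409, chr17:35424850-35430055) stood at 8.28, 4.85 and 28.5 CPM in the CTL libraries and at 2.61, 1.54 and 0.982 CPM in the Nelfb-/- libraries, which gave a log2 fold change of -2.69 ± 0.69 (adjusted p = 0.046). Both genes were highest in CTL replicate 3, without which the log2 fold change of H2-Q6 was -1.97 (adjusted p = 0.042). The groups did not overlap for either gene. Their calls were less stable than that of H2-Q10. Each was lost when CTL replicate 1, CTL replicate 2, Nelfb-/- replicate 2 or Nelfb-/- replicate 3 was left out, with adjusted p up to 0.13 for H2-Q7 and 0.15 for H2-Q6. H2-Q4, also of the Q region, stood at 47.5, 37.3 and 95.7 CPM in the CTL libraries and at 87.3, 49.3 and 49.99 CPM in the Nelfb-/- libraries. Its groups overlapped and its log2 fold change was 0.12 ± 0.40 (adjusted p = 0.87), with a sign that turned between -0.17 and 0.51 as libraries were left out.

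**Figure D2:**
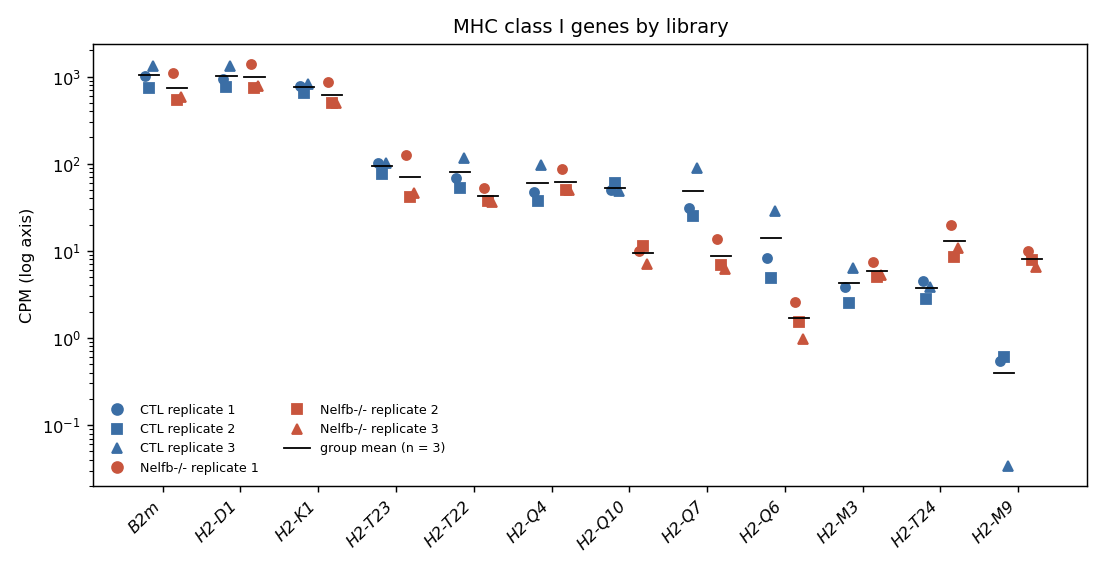
CPM (y axis, log scale) of the 12 tested class I genes (x axis, by their mean in CTL) in each library. Symbols mark the replicates and lines the group means. The groups overlap for B2m, H2-D1 and H2-K1, and are apart for H2-Q10, H2-Q7, H2-Q6, H2-T24 and H2-M9.

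The promoters of class I genes are known for a kappa-B element that binds NF-kappaB factors, an element bound by interferon regulatory factors (IRF), a site related to the cAMP response element (CRE) and an inverted CCAAT box. The 250 bases before the RefSeq start (GRCm38.p6) were read for 20 of the 27 members. Cd1d1, Cd74, Cd86, H2-Ab1, H2-T24, Nlrc5 and Tap2 were not among them. Windows of H2-K1, which did not pass the threshold, of H2-Q7 and H2-Q10, which were lower, and of H2-M9, which was higher in Nelfb-/- cells, are shown 5′ to 3′ so that genes that moved differently can be read side by side. Capitals mark GGGATTCC (kappa-B), TGACG (CRE core), CCAAT and GAAANNGAA (IRF), searched on both strands, so that a CCAAT box on the other strand reads ATTGG. None of the stretches shown overlaps an annotated exon. They lie at chr17:34000348-34000597 (minus strand) for H2-K1, chr17:35438905-35439154 (plus) for H2-Q7, chr17:35469839-35470088 (plus) for H2-Q10 and chr17:36642667-36642913 (minus, 247 bases) for H2-M9.
H2-K1: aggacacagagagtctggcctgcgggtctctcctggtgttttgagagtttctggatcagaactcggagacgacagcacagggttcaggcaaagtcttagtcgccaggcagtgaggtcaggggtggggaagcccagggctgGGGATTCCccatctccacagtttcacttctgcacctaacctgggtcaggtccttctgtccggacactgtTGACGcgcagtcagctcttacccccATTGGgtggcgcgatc
H2-Q7: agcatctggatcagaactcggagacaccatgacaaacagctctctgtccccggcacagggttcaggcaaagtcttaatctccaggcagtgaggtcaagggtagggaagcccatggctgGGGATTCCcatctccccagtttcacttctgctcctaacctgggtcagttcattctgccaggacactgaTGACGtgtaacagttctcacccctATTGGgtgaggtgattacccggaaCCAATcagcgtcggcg
H2-Q10: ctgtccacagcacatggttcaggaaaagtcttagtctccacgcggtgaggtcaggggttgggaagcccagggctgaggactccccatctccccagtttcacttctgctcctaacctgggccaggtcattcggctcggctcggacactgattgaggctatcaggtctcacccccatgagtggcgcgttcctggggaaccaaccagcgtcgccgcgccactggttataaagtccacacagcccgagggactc
H2-M9: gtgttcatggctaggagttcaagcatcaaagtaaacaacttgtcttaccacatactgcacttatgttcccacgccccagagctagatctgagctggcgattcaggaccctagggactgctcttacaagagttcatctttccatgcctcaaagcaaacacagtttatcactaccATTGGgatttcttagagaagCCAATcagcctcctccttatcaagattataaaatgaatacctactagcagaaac

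The kappa-B letters were found in 4 of the 20 windows, those of H2-K1, H2-D1, H2-Q6 and H2-Q7, and in 0.889% of 32851 mouse promoters of the same length. H2-K1 and H2-D1 did not pass the threshold and H2-Q6 and H2-Q7 were lower in Nelfb-/- cells, so that genes with the element were in both sets. The H2-D1 window, its kappa-B match included, lies wholly within annotated exon sequence, as do those of H2-Q4, H2-Ke6, Tap1 and Tapbp, and others, with H2-T23 and H2-DMb1 the most, do in part. The CRE core was in 9 of 20 windows and in 17.8% of all promoters, CCAAT in 16 of 20 and in 33.8%, and the IRF letters in 4 of 20 (B2m, H2-T22, H2-T23 and Ctss) and in 7.13%. The H2-Q10 window held none of the 4 sets of letters. Aligned with that of H2-K1, it was identical at 158 of 182 aligned bases (86.8%), and the stretch under the H2-K1 kappa-B element differed by G1A and T5C, where the H2-K1 base comes first and positions count from 1 at the first G. A match or its absence concerns these letters only, and no binding was measured here.

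**Figure D3:**
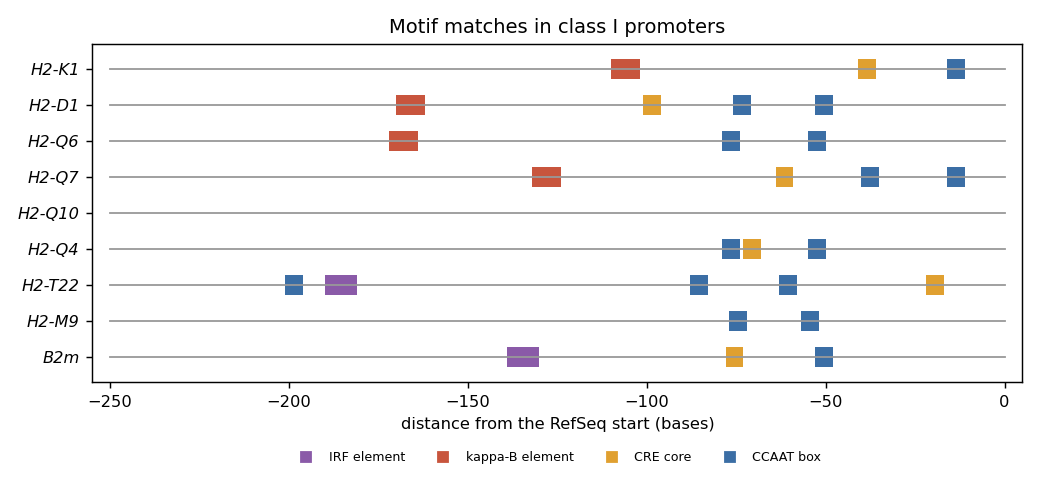
Matches to 4 motifs (colours) in the 250 bases before the RefSeq start (x axis, distance in bases) of 9 class I genes (y axis). H2-K1, H2-D1, H2-Q6 and H2-Q7 carry the kappa-B letters, and the H2-Q10 line is empty.

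The T region gave no single direction. H2-T23 encodes Qa-1, a ligand of NKG2 receptors on natural killer cells, and stood at 101, 75.7 and 102 CPM in the CTL libraries and at 126, 41.8 and 45.8 CPM in the Nelfb-/- libraries. Its groups overlapped through Nelfb-/- replicate 1 alone, and its log2 fold change of -0.57 ± 0.43 (SE, adjusted p = 0.40) became -1.08 (adjusted p = 0.019) without that library. H2-T22, which encodes a ligand of gamma-delta T cells, stood at 67.8, 52.8 and 117 CPM in the CTL libraries and at 53.2, 37.1 and 36.5 CPM in the Nelfb-/- libraries. The groups overlapped by the narrow gap between 52.8 and 53.2, and the fitted log2 fold change was -0.85 ± 0.32 (adjusted p = 0.12). H2-T24 (ENSMUSG00000053835, chr17:36005695-36020560) stood at 4.51, 2.80 and 3.81 CPM in the CTL libraries and at 19.9, 8.56 and 10.8 CPM in the Nelfb-/- libraries, which gave a log2 fold change of 1.74 ± 0.36 (adjusted p = 0.025). The groups were apart for H2-T24, and it lost its call without CTL replicate 1, CTL replicate 2 or Nelfb-/- replicate 3, with adjusted p up to 0.092.

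In the M region, H2-M9 was higher in Nelfb-/- cells. H2-M9 (ENSMUSG00000067201, chr17:36639285-36642666) belongs to the class Ib genes known from vomeronasal sensory neurons. It stood at 0.541, 0.607 and 0.034 CPM in CTL, which are 12, 13 and 1 reads, and 9.91, 7.92 and 6.49 CPM in Nelfb-/- cells, which are 209, 136 and 159 reads. The groups were apart by more than 10-fold, and the fitted log2 fold change was 4.69 ± 0.83 (SE, adjusted p = 0.016). With so few CTL reads the size depended on the setting, and was 3.70 without CTL replicate 3, which held 1 read, and 2.72 with a pseudocount of 1 CPM. The call was lost without Nelfb-/- replicate 2 or 3, with adjusted p up to 0.066. H2-M3, which presents N-formylated peptides, stood at 3.83, 2.52 and 6.43 CPM in the CTL libraries and at 7.35, 5.06 and 5.22 CPM in the Nelfb-/- libraries, overlapping groups with a log2 fold change of 0.54 ± 0.38 (adjusted p = 0.37). The untested genes were rare. H2-M1 had 6, 4 and 0 reads in CTL and 13, 5 and 5 in Nelfb-/- cells, and H2-M2 had 1, 1 and 0 in CTL and 13, 5 and 3 in Nelfb-/- cells.

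Class I genes are close copies of each other, so the share of 50-base words of each transcript that also occur in transcripts of another gene was counted. It was 53.5% for H2-T22, 36.4% for H2-Q4, 35.0% for H2-Q6, 26.5% for H2-Q7 and 19.1% for H2-Q10. It was 12.8% for H2-D1, 9.63% for H2-K1, 3.17% for H2-T24 and 0.90% for H2-M9. Among class I genes, values that were not whole reads, within 0.05 of a read, went with this. Outside class I the link was looser. Tap1, with a share of 3.33%, was whole in 0 of 5 libraries, and H2-DMb1, with 22.7%, in 4 of 6. In libraries with up to 1000 reads of the gene, H2-Q6 was whole in 0 of 6, H2-Q10 in 0 of 3 and H2-Q7 in 1 of 5, while H2-T24 and H2-M9 were whole in 6 of 6. H2-T22 was whole in 0 of 2 and H2-T23, with a shared part of 14.5%, in 0 of 1, and 1003 exon bases of H2-T22 lie over A930015D03Rik on the other strand. Levels of single Q genes and of H2-T22 and H2-T23 are therefore uncertain to the extent that reads were divided among copies. H2-Q6, H2-Q7 and H2-Q10 were summed, which leaves exchange among these 3 without effect. Their sum was 88.8, 89.2 and 167 CPM in the CTL libraries and 26.0, 19.9 and 14.2 CPM in the Nelfb-/- libraries. As the groups were apart for each of the 3, the sums had to be apart too, so that this is no further test. Exchange with copies outside the 3, such as H2-Q4 and H2-K1, is not covered by the sum.

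**Figure D4:**
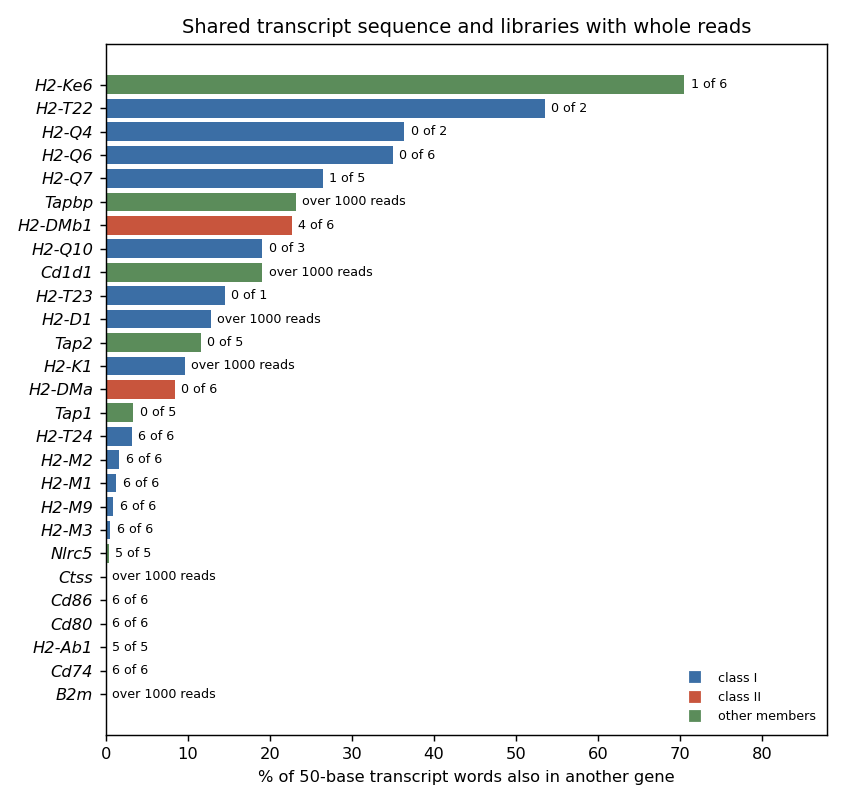
Share of the 50-base words of each of the 27 genes (y axis) that also occur in another gene (x axis, %). Text at each bar gives the libraries with whole reads of those with up to 1000 reads. H2-Ke6 (70.5%) and H2-T22 (53.5%) share the most, and H2-Ab1, Cd80, Cd86, Ctss, Cd74 and B2m share none.

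Class II genes moved apart from each other. H2-Ab1, the beta chain of I-A, was lower in Nelfb-/- cells, whereas H2-DMa, the alpha chain of the H2-DM peptide exchanger, was higher. Of 3 tested class II genes 1 was called in each direction, and the median log2 fold change was 0.995. The further class II chains H2-Aa and H2-Eb1 had no row among the members. The values of H2-Ab1 are therefore those of the beta chain transcript alone. H2-Ab1 (ENSMUSG00000073421, chr17:34257689-34269419) stood at 20.8, 18.1 and 43.6 CPM in the CTL libraries and at 1.38, 4.83 and 2.73 CPM in the Nelfb-/- libraries. The lowest CTL library was above the highest Nelfb-/- library, and the fitted log2 fold change was -3.25 ± 0.53 (SE, adjusted p = 0.013). It shared no 50-base word with another gene, and its call was lost only without Nelfb-/- replicate 3 (adjusted p = 0.061) and in the test without moderated variances (adjusted p = 0.067). Without CTL replicate 3 and Nelfb-/- replicate 1 together its log2 fold change was -2.40.

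H2-DMa (ENSMUSG00000037649, chr17:34119541-34139101) stood at 1.85, 1.90 and 2.15 CPM in the CTL libraries and at 5.24, 7.75 and 8.11 CPM in the Nelfb-/- libraries, which gave a log2 fold change of 1.79 ± 0.26 (SE, adjusted p = 0.0093). The CTL libraries lay close together and the groups were apart, and the call was lost only without Nelfb-/- replicate 3 (adjusted p = 0.060). Of its exon bases, 360 lie over Brd2 on the other strand, and its values were whole reads in 0 of 6 libraries, so that its reads and those of Brd2 are hard to separate there. The strand setting of the counting is not given in the sources used here. H2-DMb1, a beta chain of H2-DM, stood at 1.98, 0.793 and 1.80 CPM in the CTL libraries and at 4.27, 2.03 and 2.73 CPM in the Nelfb-/- libraries. Its groups were apart by a small gap, and its log2 fold change of 0.995 ± 0.46 (adjusted p = 0.19) did not pass the threshold. Cd74, not tested, was at 0, 2 and 0 reads in CTL and at 1, 7 and 18 reads in Nelfb-/- cells, or 0.0474, 0.407 and 0.734 CPM. The invariant chain transcript was thus under the floor in CTL cells, in which H2-Ab1 was at its highest.

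**Figure D5:**
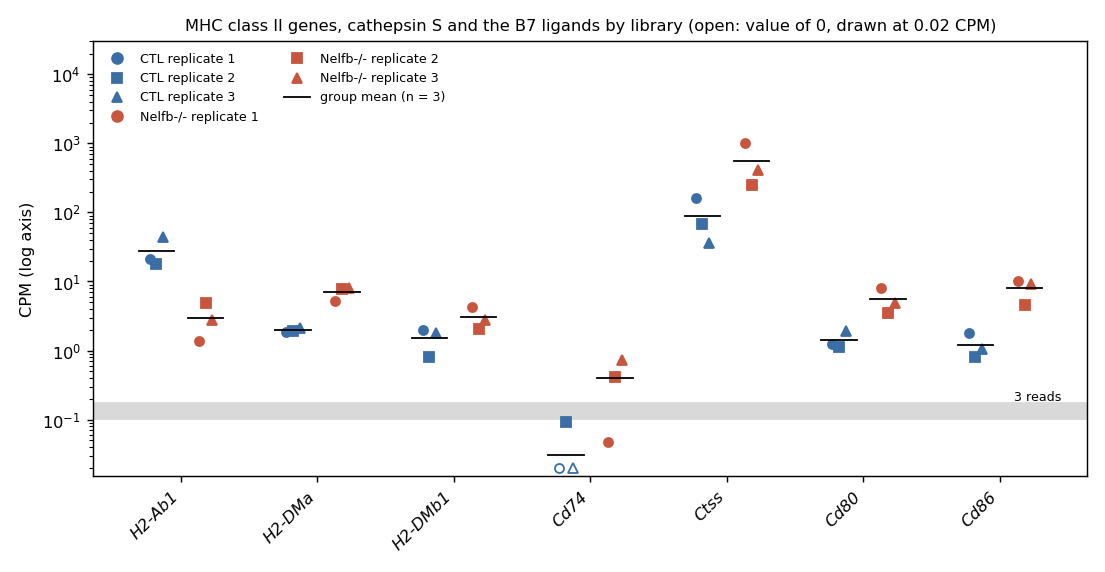
CPM (y axis, log scale) of the class II genes, Ctss, Cd80 and Cd86 (x axis) in each library, with lines at the group means. Open symbols are values of 0, drawn at 0.02 CPM, and the grey band marks 3 reads. H2-Ab1 lies higher in CTL, and H2-DMa, Ctss, Cd80 and Cd86 lie higher in Nelfb-/- cells.

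Cathepsin S and both co-stimulatory ligands were higher in Nelfb-/- cells. They were the 3 genes called higher among the 9 members outside class I and class II, of which 1, H2-Ke6, was lower, and the median log2 fold change of the 9 was 0.16. Ctss stood at 159, 67.5 and 36.4 CPM in the CTL libraries and at 1015, 249 and 408 CPM in the Nelfb-/- libraries, which gave a log2 fold change of 2.68 ± 0.68 (SE, adjusted p = 0.044). Cd80 stood at 1.26, 1.12 and 1.90 CPM in the CTL libraries and at 8.06, 3.49 and 4.94 CPM in the Nelfb-/- libraries, which gave a log2 fold change of 1.86 ± 0.39 (adjusted p = 0.025). Cd86 stood at 1.80, 0.793 and 1.054 CPM in the CTL libraries and at 10.2, 4.54 and 9.18 CPM in the Nelfb-/- libraries, which gave a log2 fold change of 2.67 ± 0.44 (adjusted p = 0.013). The groups were apart for all 3, and the highest value was in Nelfb-/- replicate 1. The Ctss call was lost when any library but CTL replicate 1 was left out (adjusted p up to 0.13), and its log2 fold change was 1.62 without CTL replicate 3 and Nelfb-/- replicate 1 together. The log2 fold change of Cd86 was 1.98 with a pseudocount of 1 CPM. The Cd80 call was lost without CTL replicate 1, CTL replicate 2 or Nelfb-/- replicate 3 (up to 0.098), and the Cd86 call without CTL replicate 2 or Nelfb-/- replicate 3 (up to 0.069).

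Macrophage markers moved with these genes. All 16 of the list had a row, and of 15 tested 13 were called higher and 0 lower in limma and 2 were called gene by gene without moderated variances, with a median log2 fold change of 3.07. Their summed level was 329 to 1116 CPM in CTL and 2779 to 9005 CPM in Nelfb-/- cells. Lyz2, the macrophage lysozyme, stood at 294, 143 and 69.5 CPM in the CTL libraries and at 3038, 911 and 1583 CPM in the Nelfb-/- libraries. Lyz2, like Ctss, was highest in replicate 1 of each group. Cx3cr1 was near 0 in both groups (means of 0.0527 and 0.558 CPM). H2-Ab1 ran the other way, being lowest in the library with the most macrophage marker RNA. In bulk RNA, fewer cells of a type and less RNA per cell cannot be told apart, and the part of macrophages in the changes of Ctss, Cd80, Cd86 and the class II genes was not tested.

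Of 10 dendritic and Langerhans cell markers 4 had a row and 3 were tested, and Itgax was called higher, from 0.133 to 1.37 CPM, with 0 called gene by gene. Zbtb46, the most abundant of them, averaged 6.46 CPM over the CTL libraries and 4.73 CPM over the Nelfb-/- libraries, with overlapping groups (log2 fold change -0.43, adjusted p = 0.43). Of 12 lymphocyte and mast cell markers 2 had a row, of which Kit was tested and not called (adjusted p = 0.62). Of 10 fibroblast markers 0 passed the threshold in limma, with 4 at an unadjusted p under 0.05 and 0 called gene by gene, a median log2 fold change of 1.22 and a summed level of 5714 to 19469 CPM in CTL and 10013 to 35843 CPM in Nelfb-/- cells. Of 10 adipocyte markers 1 was called higher (Lep) and 1 lower (Retn), with 0 called gene by gene and a median of -0.91. Of 10 tested endothelial, keratinocyte, melanocyte and glial markers, 6 were called higher, among them Sox10, Tyr and Krt14, and 0 lower, with 5 called gene by gene and a summed level of 22.6 to 23.5 CPM in CTL and 101 to 118 CPM in Nelfb-/- cells. The part of these cell types in the class I changes was not tested.

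The peptide transporter and its partners showed no called change. Tap1 stood at 27.7, 18.7 and 57.5 CPM in the CTL libraries and at 43.1, 34.4 and 28.4 CPM in the Nelfb-/- libraries, which gave a log2 fold change of 0.16 ± 0.41 (SE, adjusted p = 0.82) whose sign turned without CTL replicate 2. Tap2 stood at 40.6, 34.3 and 43.3 CPM in the CTL libraries and at 33.4, 28.8 and 31.7 CPM in the Nelfb-/- libraries, which gave a log2 fold change of -0.33 ± 0.15 (adjusted p = 0.18). Tapbp, which encodes tapasin, the bridge between TAP and the heavy chain, stood at 206, 186 and 170 CPM in the CTL libraries and at 195, 124 and 125 CPM in the Nelfb-/- libraries, which gave a log2 fold change of -0.37 ± 0.21 (adjusted p = 0.28). The groups overlapped for Tap1 and Tapbp and were apart, with Nelfb-/- lower, for Tap2. Parts of the exons of all 3 lie over other genes, so that reads are hard to separate there. Of 15 other genes of peptide loading 0 passed the threshold in limma, against 3 at an unadjusted p under 0.05 and 0 gene by gene, with a median of 0.03. Among them the proteasome activator subunits Psme1 (log2 fold change -0.70, adjusted p = 0.029) and Psme2 (-0.91, adjusted p = 0.037) passed the limit on p but not that of 2-fold.

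Nlrc5 stood at 18.5, 17.3 and 16.3 CPM in the CTL libraries and at 53.3, 24.8 and 26.0 CPM in the Nelfb-/- libraries. Each Nelfb-/- library was above each CTL library, but the log2 fold change of 0.90 ± 0.31 (SE, adjusted p = 0.095) did not pass the threshold. Of 23 tested interferon and promoter-binding regulators 3 were called higher and 0 lower in limma, where 11.2% of all genes tested were called. The count is near that share. Gene by gene 1 was called, and the median was 0.21. The 3 called in limma were the kinase Jak1 (1.10 ± 0.14, adjusted p = 0.0068), the myeloid transcription factor Irf8 (2.54 ± 0.54, adjusted p = 0.027) and the signalling inhibitor Socs1 (1.68 ± 0.42, adjusted p = 0.042), given as log2 fold changes with SE. Irf1 (log2 fold change -0.14, adjusted p = 0.54), Rfx5 (-0.33, adjusted p = 0.23) and Rela (-0.28, adjusted p = 0.33) were not called.

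Of 12 tested other genes of the class II pathway 2 were called higher and 1 lower in limma, where 11.2% of all genes tested were called. Gene by gene 1 was called, and the median was 1.10. Marchf1, the ubiquitin ligase that marks class II molecules and CD86 for removal from the surface, stood at 1.44, 0.467 and 0.952 CPM in the CTL libraries and at 26.3, 10.9 and 17.9 CPM in the Nelfb-/- libraries (log2 fold change 4.24 ± 0.49, SE, adjusted p = 0.0057). Ifi30, a lysosomal thiol reductase, rose from 16.03 to 39.1 CPM (1.26 ± 0.29, adjusted p = 0.032), and Rilp, an effector of Rab7 on late endosomes, fell from 3.57 to 0.966 CPM (-1.81 ± 0.34, adjusted p = 0.018). Of 11 tested other co-stimulatory and co-inhibitory ligands 0 passed the threshold in limma, with 4 at an unadjusted p under 0.05 and 0 gene by gene. Cd40 (log2 fold change 1.51, adjusted p = 0.066), Cd48 (2.57, adjusted p = 0.064) and Lgals9 (1.63, adjusted p = 0.058) had groups that did not overlap. These were 3 of the 11, where 38.1% of all genes tested had groups that did not overlap, so that the count does not stand out.

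The remaining members were Cd1d1 and H2-Ke6. Cd1d1, which presents lipids to natural killer T cells, stood at 106, 109 and 53.9 CPM in the CTL libraries and at 77.0, 64.1 and 53.5 CPM in the Nelfb-/- libraries, overlapping groups with a log2 fold change of -0.41 ± 0.30 (SE, adjusted p = 0.40). H2-Ke6 stood at 26.9, 26.9 and 15.7 CPM in the CTL libraries and at 7.80, 9.62 and 8.46 CPM in the Nelfb-/- libraries, with groups apart and a log2 fold change of -1.38 ± 0.25 (adjusted p = 0.017). Its call was lost without CTL replicate 1, CTL replicate 2, Nelfb-/- replicate 2 or Nelfb-/- replicate 3, with adjusted p up to 0.078. Of its 50-base words 70.5% also lie in another gene. The main partner was Gm20427, an overlapping gene on the same strand, so that the reads of these 2 genes are hard to separate. Without CTL replicate 3 and Nelfb-/- replicate 1, an alternative added after the data were seen, 6 class I, 2 class II and 4 other members were called, against 5, 2 and 4 with all libraries. Calls over all genes tested rose in that fit from 11.2% to 27%, so that the added calls say nothing particular about these genes. In the same fit 8 of the other co-stimulatory and co-inhibitory ligands, 8 fibroblast markers and 5 adipocyte markers were called, against 0, 0 and 2, and the number of macrophage markers called was 13 in each fit.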

How the data were processed

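Total RNA of 3 CTL and 3 Nelfb-/- cultures was sequenced, and the labels name STAR 2.7, Partek 9.0.20.0202 and mm10, while the authors name DESeq2 for the alignment in their methods. The counting rules and strand setting are not given in the sources used here. The values deposited by the authors are CPM, with 0.0001 added to each, and the table held only genes with at least 10 reads in the highest library. The CPM worth of 1 read was read from the lowest values. Between 72.2% and 74.8% of low values were whole within 0.05 of a read, so that no count test was run and depths are estimates.

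CPM less the offset was multiplied by 22.3 M (M, 1e+06), the geometric mean depth. limma 3.58.1 in R 4.3.3 was fitted to log2(value + 1) of all genes with a mean of 10 or more, with an abundance trend and Benjamini-Hochberg adjustment. This scale understates the change of low genes. In simulated CTL and Nelfb-/- libraries, of which 15940 genes were tested, the test called 155 of 200 changed genes and 14 of the others. With no gene changed, 0 of 15935 were called. All planted changes were larger than the limit of 2-fold, so that the calls do not measure power at that limit. Noise was drawn for each gene independently. Shifts shared by a whole library, as on the second component, were not simulated. Alternatives changed the pseudocount, filter, scaling, variance model, block and libraries.

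Every tested member was named, with up to 6 called genes of each further list, apart from some that are not reported here. Members and lists were chosen with earlier results of these data known, so no p was adjusted over a list. Of the table's genes, 17551 matched GENCODE vM21 (GRCm38) by name, 98.9% at the same position. Identifiers are from GENCODE and positions from both. Promoters are from RefSeq (GRCm38.p6).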

Additional observations from a re-analysis of the deposited data

How the results depend on the processing

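Under a test gene by gene without moderated variances, 1 class I, 1 class II and 0 other members were called, with 5 other members at an unadjusted p under 0.05, and 684 genes in all against 1824 in limma with moderation. Without CTL replicate 3 and Nelfb-/- replicate 1 together, an alternative chosen after the data were seen, 4383 genes in all were called. With 1 library left out at a time, 1 to 6 class I, 0 to 2 class II and 0 to 3 other members were called, and 426 to 2479 genes in all, with the fewest in all without Nelfb-/- replicate 3. Limma called 0 other members without CTL replicate 2 or Nelfb-/- replicate 3, with 5 at an unadjusted p under 0.05 in each, and 0 class II members without Nelfb-/- replicate 3, with 2. The lowest and highest log2 fold changes over these left-out libraries were -0.36 and 0.15 for H2-D1, -0.17 and 0.51 for H2-Q4, and -0.20 and 0.61 for Tap1, none of them past the threshold. Of the values of single members under all alternatives, 359 kept their direction and side of the threshold, 41 lost the call, 2 gained it (both H2-T23) and 6 turned sign. Ctss was also lost without the abundance trend, and H2-Q6 without the trend and with a pseudocount of 1 CPM. Quantile normalization moved log2 fold changes by -0.13 in the median. The cause of these shifts was not tested. With the replicate number as a block, 5 class I, 2 class II and 4 other members and 2175 genes in all were called. Same-numbered CTL and Nelfb-/- libraries deviated together with correlations of 0.52, -0.39 and 0.52, so that the numbers were not taken to pair them. Depth limits Cd74, H2-M1 and H2-M2, whose CTL libraries held 0 to 6 reads, and 3 libraries per group limit every p.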

Other observations

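Rows of the table with an H2 symbol that are not protein coding were left out of the members. There were 4, and their groups overlapped. H2-K2 averaged 7.62 CPM over the CTL libraries and 3.81 CPM over the Nelfb-/- libraries, H2-Q5 of 1.96 and 1.19 CPM, H2-T-ps of 1.52 and 0.565 CPM and H2-T10 of 2.38 and 1.25 CPM. H2-T10 was the gene most often met for the 50-base words that transcripts of H2-T22 share with other genes.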
